A study of Mus musculus with 20 samples.

Results

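The genes described here are 5 genes of neutrophil precursors, Mpo, Elane, Ctsg, Prtn3 and Ms4a3. They are a named list, not picked by a rule on measured values, but chosen with earlier results of these data known. They come from the 53379 gene identifiers measured in 20 RNA-seq libraries of mouse fetal liver progenitors. All 5 were found in every library and all 5 were among the 15835 genes with enough counts to test. The cells were progenitors depleted of mature lineage markers (Lin-), infected with a retroviral MSCV vector and cultured for 3 days, and there were 5 groups of 4 libraries each. The first group was wild type with an empty control vector. The other 4 groups all carried a knockout of the Gata2 -77 enhancer, a distal element that drives Gata2 in progenitors, and received the empty vector, a vector with Gata2, or a vector coding the GATA2 mutant R307W or T354M. R307W changes the N-terminal zinc finger of this transcription factor and T354M its C-terminal, DNA-contacting zinc finger. The labels of the wild-type, empty-vector and Gata2-vector groups give age E14.5, strain C57BL/6J, and a medium with serum and conditioned media as sources of IL3 and SCF. The R307W and T354M records state neither age, strain nor medium, so any difference in handling between these groups and the others cannot be told apart from the vector. The labels do not say whether replicates came from separate embryos or cultures, so p-values measure the spread between these libraries, which may be technical.

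Azurophil (primary) granules are made at the promyelocyte stage, before specific and gelatinase granules, and their contents are transcribed in a short window of granulocyte differentiation. Mpo encodes myeloperoxidase, the haem enzyme that makes hypochlorous acid. Elane (neutrophil elastase), Ctsg (cathepsin G) and Prtn3 (proteinase 3) encode serine proteases stored in the same granules, and Ms4a3 encodes a membrane-spanning protein used as a marker of granulocyte-monocyte progenitors and promyelocytes rather than a granule enzyme. PU.1, C/EBP factors, Myb and Gfi1 are known regulators of this stage, and Gata2 acts earlier, in stem and progenitor cells and in the mast cell, basophil and eosinophil lineages.

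The 5 genes lie at 4 places in the genome (mm10): Mpo at chr11:87793581-87804413 on the plus strand, Elane at chr10:79886247-79888215 and Prtn3 at chr10:79874476-79883174, both on the plus strand, Ctsg at chr14:56099881-56102574 on the minus strand, and Ms4a3 at chr19:11629496-11640851 on the minus strand. Elane and Prtn3 are neighbours, 3.07 kb apart. Their promoters are shown because 4 of the 5 genes rose together with one vector. Each line gives the 250 bases before the RefSeq transcription start (GRCm38.p6), 5′ to 3′ on the gene's strand, with GGAAGT, the core letters bound by ETS-family factors such as PU.1, in capitals.
Mpo: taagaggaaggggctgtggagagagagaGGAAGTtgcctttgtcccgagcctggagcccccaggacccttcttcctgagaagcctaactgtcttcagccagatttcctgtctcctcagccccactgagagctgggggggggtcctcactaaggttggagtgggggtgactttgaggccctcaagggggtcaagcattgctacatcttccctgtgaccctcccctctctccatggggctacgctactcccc
Elane: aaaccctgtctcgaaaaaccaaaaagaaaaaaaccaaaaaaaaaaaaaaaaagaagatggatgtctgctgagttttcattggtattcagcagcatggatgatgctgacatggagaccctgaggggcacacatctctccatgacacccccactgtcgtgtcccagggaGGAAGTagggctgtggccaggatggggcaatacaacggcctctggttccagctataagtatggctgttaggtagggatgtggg
Ctsg: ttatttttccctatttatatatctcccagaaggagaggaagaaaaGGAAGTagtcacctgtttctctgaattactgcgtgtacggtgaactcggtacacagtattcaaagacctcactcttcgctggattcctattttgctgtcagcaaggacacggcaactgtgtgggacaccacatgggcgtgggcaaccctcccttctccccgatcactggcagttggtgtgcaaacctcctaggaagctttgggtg
Prtn3: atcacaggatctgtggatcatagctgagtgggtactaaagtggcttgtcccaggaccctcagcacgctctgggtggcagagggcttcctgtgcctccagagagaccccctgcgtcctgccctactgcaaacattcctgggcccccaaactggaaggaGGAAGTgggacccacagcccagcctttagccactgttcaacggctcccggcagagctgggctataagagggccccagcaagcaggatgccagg
Ms4a3: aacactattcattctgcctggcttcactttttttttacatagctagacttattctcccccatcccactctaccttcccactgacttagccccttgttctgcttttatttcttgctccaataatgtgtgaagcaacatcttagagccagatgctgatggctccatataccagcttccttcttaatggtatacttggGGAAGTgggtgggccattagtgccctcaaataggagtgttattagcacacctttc
The windows are chr11:87793534-87793783 (+) for Mpo, chr10:79886062-79886311 (+) for Elane, chr14:56102575-56102824 (-) for Ctsg, chr10:79879417-79879666 (+) for Prtn3 and chr19:11640852-11641101 (-) for Ms4a3. The gene positions above are those of GENCODE, whose starts are not all the RefSeq ones. The Prtn3 window lies inside the Prtn3 positions given above, and the Mpo and Elane windows run into theirs. GGAAGT stood once in each of the 5 windows, always on the gene's own strand, against 19.74% of 32851 RefSeq windows of this length searched on both strands. It ended 217 bases before the start in Mpo, 78 in Elane, 200 in Ctsg, 88 in Prtn3 and 50 in Ms4a3. The longer AGGAAGT, which contains GGAAGT, was found in 4 of the 5, all but Ms4a3, against 7.686% of windows. The C/EBP letters TTNNGCAA were in 0 of the 5 (9.564% of windows) and the GATA letters AGATAA in 0 of the 5 (9.988%). The Myb letters AACNG were in 4 of the 5, but are short enough to occur in 74.19% of windows. The letters searched were chosen with the sequences and results known, no binding was measured here, and a match or its absence in this window is a description of the sequence.

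The libraries held 22330475 to 33245876 expected counts, of which 17.87% to 24.64% came from the mitochondrial ribosomal RNA gene mt-Rnr2. Levels below are CPM, counts scaled to library size and, by TMM, to library composition, and differences are log2 differences with standard errors from edgeR's quasi-likelihood test fitted to all genes, called at a Benjamini-Hochberg adjusted p below 0.05. Gata2 itself, the targeted gene, was at 44.3 ± 9.81 CPM (SD, n = 4) in wild type and 5.79 ± 1.3 in enhancer-null cells with empty vector. It was at 80.7 ± 37.3 with the Gata2 vector, 54.8 ± 23.7 with R307W and 52.0 ± 19.7 with T354M, values in which transcripts of the vector and of the gene itself are not distinguished. Gata2 did not pass the test between T354M and the Gata2 vector (adjusted p = 0.280) or between R307W and T354M (0.992).

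With the T354M vector 4 of the 5 genes were higher than in enhancer-null cells with empty vector, all but Prtn3, beside 17.4% of all genes called in either direction and 9.26% called higher. With R307W 1 was higher, Mpo (17.5% called, 10% higher), and with the Gata2 vector 1 was lower, Elane (19.2% called, 8.23% lower). The loss of the enhancer alone gave 0 calls among the 5 by edgeR, where 43.3% of genes were called. In that comparison 1 of the 5, Elane, had an unadjusted p below 0.05, DESeq2 called 0 and limma on log2(TPM + 1) called 2, Mpo and Prtn3. T354M exceeded the Gata2 vector in 5 of 5 genes (10% of all genes called, 3.86% higher), and R307W exceeded it in 2, Mpo and Elane (1.73% called, 0.587% higher). R307W was below T354M in 3, Elane, Ctsg and Ms4a3 (3.49% called, 1.19% lower). Against wild type, T354M was higher in 4, all but Elane (37% called, 18.6% higher), and R307W in 1, Mpo (33.5% called, 16.5% higher). The Gata2 vector was higher than wild type in Mpo and lower in Elane (30.7% called, 14.7% higher and 16% lower). The comparisons against empty vector share those 4 libraries, and comparisons against wild type share the wild-type libraries. In bulk RNA, more cells of a type and more RNA per cell cannot be told apart.

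**Figure D1:**
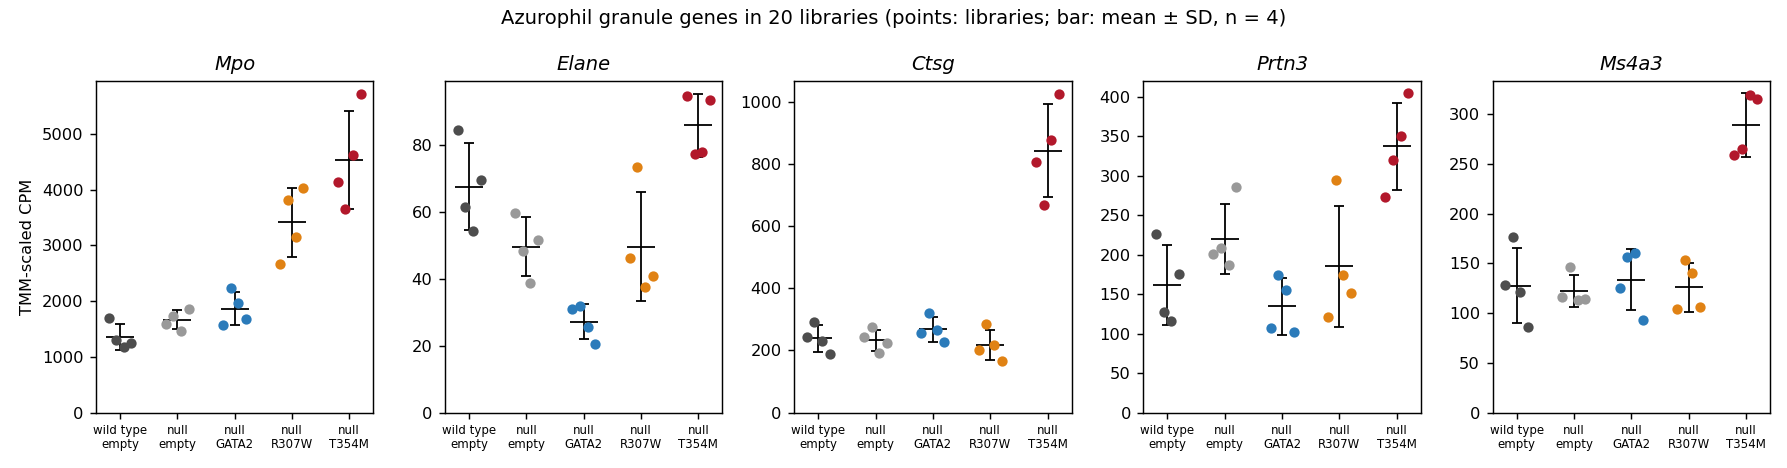
TMM-scaled CPM (y axis, linear, from 0) of each gene in the 20 libraries, by group; "null" is the Gata2 -77 enhancer knockout, points are libraries and bars the mean ± SD of 4. The 4 T354M libraries of Ctsg (667 to 1024) and Ms4a3 (258 to 319) lie above every other library, while Mpo is raised with both R307W and T354M.

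Per unit of transcript length (TPM), Mpo was the highest of the 5 and Elane the lowest in each of the 20 libraries. The order Mpo, Ctsg, Prtn3, Ms4a3, Elane held in 14 libraries, Prtn3 stood above Ctsg in 5, and Ms4a3 above Prtn3 in 1. The summed TPM of the 5 was 1183 ± 151 (SD, n = 4) in wild type, 1439 ± 144.8 in enhancer-null cells with empty vector, 1418 ± 266 with the Gata2 vector, 2137 ± 171 with R307W and 3756 ± 372 with T354M. The lowest T354M library (3352) lay above the highest R307W library (2331), which in turn was the highest outside T354M. Mpo alone made up 47.1% ± 2.84 of that sum in wild type, 50.7% ± 0.91 with empty vector, 56.5% ± 2.29 with the Gata2 vector, 69.5% ± 5.43 with R307W and 53.6% ± 1.45 with T354M.

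Myeloperoxidase came first in level and responded to both mutants. Mpo was at 1694, 1309, 1177 and 1254 CPM in the wild-type libraries (replicates 1 to 4) and at 1591, 1739, 1464 and 1862 in enhancer-null libraries with empty vector. These ranges overlapped, and the difference of 0.29 ± 0.16 was not called (adjusted p = 0.151). With the Gata2 vector Mpo was at 1572, 2232, 1968 and 1683 CPM, again overlapping the empty-vector libraries (0.16 ± 0.16, adjusted p = 0.549). With R307W it was at 2660, 3810, 3155 and 4026 CPM, every library above every empty-vector library. The mean was 2.05 times that with empty vector (1.04 ± 0.16, adjusted p = 0.000242). With T354M it was at 4140, 3646, 4623 and 5718 CPM, also above every empty-vector library, and 2.72 times their mean (1.45 ± 0.16, adjusted p = 5.93e-06). R307W and T354M overlapped and their difference for Mpo did not pass the test (-0.41 ± 0.16, adjusted p = 0.241, 95% interval -0.75 to -0.07). Both mutants exceeded the Gata2 vector, by 0.87 ± 0.16 for R307W (adjusted p = 0.00603) and 1.28 ± 0.16 for T354M (adjusted p = 5.04e-05). The first of these was not called without replicate 4 of every group (adjusted p = 0.0544) or in a fit of the 8 libraries alone (0.0523). Mpo with the Gata2 vector was also above wild type (0.46 ± 0.16, adjusted p = 0.0374), a call lost without wild-type replicate 2, 3 or 4 or Gata2-vector replicate 2 or 3, with adjusted p from 0.0565 to 0.0933.

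Neutrophil elastase was the only one of the 5 called lower with the Gata2 vector by edgeR, with Prtn3 at an adjusted p of 0.0604. Elane was at 84.7, 61.7, 54.5 and 69.7 CPM in wild type and at 59.8, 48.5, 38.8 and 51.8 in enhancer-null cells with empty vector. These ranges overlapped and the difference was not called, though its 95% interval lay below 0 (-0.44 ± 0.20, adjusted p = 0.0747, -0.86 to -0.03). Elane was at 31.1, 31.8, 25.6 and 20.4 CPM with the Gata2 vector, each library below every library of both empty-vector groups. The mean was 1.83 times lower than with empty vector in enhancer-null cells (-0.87 ± 0.20, adjusted p = 0.00485) and 2.48 times lower than in wild type (-1.31 ± 0.20, adjusted p = 5.28e-05). With R307W Elane was at 46.3, 73.6, 37.7 and 41.0 CPM, with replicate 2 well above the others, and these libraries overlapped the empty-vector ones (0.00 ± 0.20, adjusted p = 0.994). Against wild type Elane with R307W was not called (-0.45 ± 0.20, adjusted p = 0.0876, 95% interval -0.86 to -0.03). With T354M it was at 94.8, 77.4, 78.1 and 93.7 CPM, above every empty-vector enhancer-null library and 1.73 times their mean (0.79 ± 0.20, adjusted p = 0.00949). The T354M libraries overlapped wild type (0.35 ± 0.19, adjusted p = 0.177). Elane exceeded the Gata2-vector level with R307W (0.87 ± 0.20, adjusted p = 0.0262) and with T354M (1.66 ± 0.20, adjusted p = 2.98e-05). It was lower with R307W than with T354M (-0.79 ± 0.20, adjusted p = 0.0275). The R307W call against the Gata2 vector was lost without Gata2-vector replicate 3 or 4 or R307W replicate 1 or 2 (adjusted p 0.0542 to 0.136), and that against T354M was lost without R307W replicate 1, 3 or 4 or T354M replicate 1 or 4 (0.0765 to 0.120).

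Cathepsin G separated T354M from every other group. Ctsg was at 242, 291, 232 and 189 CPM in wild type and 242, 274, 193 and 222 in enhancer-null cells with empty vector (-0.03 ± 0.17, adjusted p = 0.891, 95% interval -0.39 to 0.32). It was at 257, 321, 265 and 227 CPM with the Gata2 vector and 201, 284, 219 and 166 with R307W, and in both cases overlapped the empty-vector libraries, with adjusted p of 0.466 and 0.740. With T354M it was at 805, 667, 877 and 1024 CPM, and the lowest of these was above the highest value of any other group, 321. The T354M mean was 3.62 times that with empty vector (1.86 ± 0.17, adjusted p = 5.35e-07), 3.15 times that with the Gata2 vector (1.66 ± 0.17, adjusted p = 6.76e-06) and 3.54 times wild type (1.82 ± 0.17, adjusted p = 1.36e-07). Between R307W and T354M the difference was -1.95 ± 0.17 (adjusted p = 2.87e-06), the largest of the 5 genes in that comparison.

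Proteinase 3, encoded beside Elane, had the largest standard error of the 5 genes in each comparison. Prtn3 was at 226, 128, 116 and 176 CPM in wild type and 201, 208, 187 and 285 in enhancer-null cells with empty vector, which overlapped (0.45 ± 0.26, adjusted p = 0.171). With the Gata2 vector it was at 107, 174, 156 and 102 CPM, every library below every empty-vector one, yet the difference was not called (-0.71 ± 0.26, adjusted p = 0.0604). It stayed uncalled in 21 of 31 alternatives, the replicate number as a block over all 20 libraries included, and was called in 10. Among these were DESeq2 (adjusted p = 0.0336), no filter on low counts (0.0329) and a fit of the 8 libraries alone (0.0280). Leaving out R307W replicate 2 (0.0300), R307W replicate 1 (0.0493), wild-type replicate 1 (0.0480) or Gata2-vector replicate 2 (0.0484) also gave a call. So did a replicate block in the 16 enhancer-null libraries (adjusted p = 0.0146), an alternative chosen after seeing the data. With R307W Prtn3 was at 121, 295, 174 and 151 CPM, replicate 2 standing high as it did for Elane. With T354M it was at 273, 320, 351 and 405 CPM, overlapping the empty-vector group by 1 library (0.61 ± 0.26, adjusted p = 0.110, 95% interval 0.07 to 1.16), and in a fit of those 8 libraries alone it was called (0.0239). T354M exceeded the Gata2 vector (1.33 ± 0.26, adjusted p = 0.00221) and wild type (1.06 ± 0.26, adjusted p = 0.00319). R307W was not called against T354M (-0.86 ± 0.26, adjusted p = 0.0788), and stayed so in 25 of 31 alternatives. The difference was called in 6, among them DESeq2 (0.0234), no filter on low counts (0.0199) and leaving out R307W replicate 2 (-1.18, adjusted p = 0.00770). The block in the 16 enhancer-null libraries, chosen after seeing the data, also called it (0.0173). The GENCODE models of Prtn3 and Plppr3, on the opposite strand, overlap at their starts, that of Prtn3 lying upstream of its RefSeq start. The sources used here do not state whether counting used strand. Plppr3 held 313 to 2021 counts a library and was higher in enhancer-null than in wild-type cells with empty vector (1.52 ± 0.27, adjusted p = 0.000170). Against empty vector it was lower with the Gata2 vector (-1.11 ± 0.27, adjusted p = 0.00740) and R307W (-0.89 ± 0.27, adjusted p = 0.0281) and not called with T354M (-0.45 ± 0.27, adjusted p = 0.273). The sign of these differences was that of Prtn3 in 3 of the 4 comparisons, all but T354M, and the part of Plppr3 reads in the Prtn3 values was not tested. The antisense gene Gm11505 inside Mpo held at most 7 counts.

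The progenitor marker Ms4a3 followed Ctsg. It was at 128, 176, 121 and 85.6 CPM in wild type, 116, 147, 113 and 114 in enhancer-null cells with empty vector, 125, 156, 160 and 93.5 with the Gata2 vector and 104, 154, 140 and 106 with R307W. These 4 groups overlapped, and adjusted p ran from 0.726 to 0.908 for the vectors against empty vector and was 0.830 for enhancer-null against wild type. With T354M it was at 258, 265, 319 and 315 CPM, all above the highest other library, and 2.36 times the empty-vector mean (1.24 ± 0.20, adjusted p = 0.000258). It was also above the Gata2 vector (1.11 ± 0.20, adjusted p = 0.000819), wild type (1.18 ± 0.20, adjusted p = 9.29e-05) and R307W (R307W minus T354M -1.20 ± 0.20, adjusted p = 0.00132). Across the 20 libraries the log2 CPM of Ctsg and Ms4a3 had a Pearson r of 0.951, the highest of the 10 pairs, against 0.378 for Mpo and Elane, the lowest, and these values share the group differences above.

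**Figure D2:**
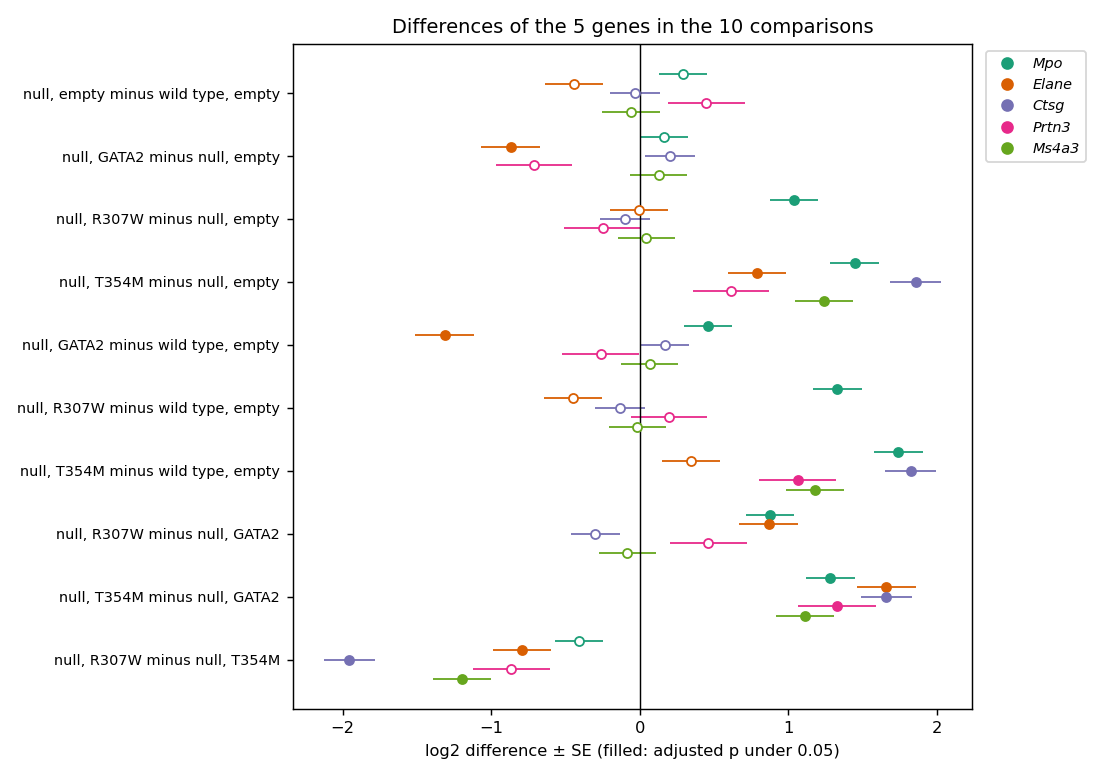
Log2 difference (x axis) of each gene in the 10 comparisons, with the standard error as bar; filled points had an adjusted p below 0.05. All 5 points are filled and to the right of 0 for T354M minus the Gata2 vector, and 4 of 5 for T354M minus empty vector, while none is filled for the enhancer knockout minus wild type.

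The 5 genes changed unequally, and their ratios to Mpo within a library measured this. Each ratio was the log2 of TPM + 1 of a gene minus that of Mpo, compared by a two-sided exact permutation test over 4 against 4 libraries, whose smallest possible p is 0.0286. Of 40 tests, 23 reached that p, with an adjusted p of 0.0497. The tests share Mpo and libraries, so they are not independent, and this adjusted p depends on how many reached the smallest p. They take the libraries as unpaired, although same-numbered libraries deviated together in some comparisons, and no paired form was run. Elane to Mpo was -3.03 ± 0.12 (SD, n = 4) in wild type, -3.76 ± 0.22 in enhancer-null cells with empty vector, -4.76 ± 0.28 with the Gata2 vector, -4.80 ± 0.43 with R307W and -4.41 ± 0.23 with T354M. It was lower in enhancer-null than in wild-type cells by exact test (p = 0.0286), although neither Elane nor Mpo alone was called there, and lower with each of the 3 vectors than with empty vector (p = 0.0286 each). In R307W all 4 ratios were below those with empty vector (p = 0.0286 each by exact test), by -1.04 for Elane, -1.11 for Ctsg, -1.35 for Prtn3 and -0.97 for Ms4a3. These 4 ratios share Mpo, which was called higher with R307W (1.04 ± 0.16), while the other 4 genes were not called. Ctsg to Mpo was -1.53 ± 0.18 with empty vector, -1.47 ± 0.13 with the Gata2 vector and -1.13 ± 0.05 with T354M, a rise of 0.40 over empty vector (exact permutation p = 0.0286). Ms4a3 to Mpo overlapped between T354M and empty vector, and its difference did not pass the test (-0.20, exact permutation p = 0.143). Prtn3 to Mpo was below empty vector with the Gata2 vector (-0.89) and T354M (-0.86), each at the smallest p.

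**Figure D3:**
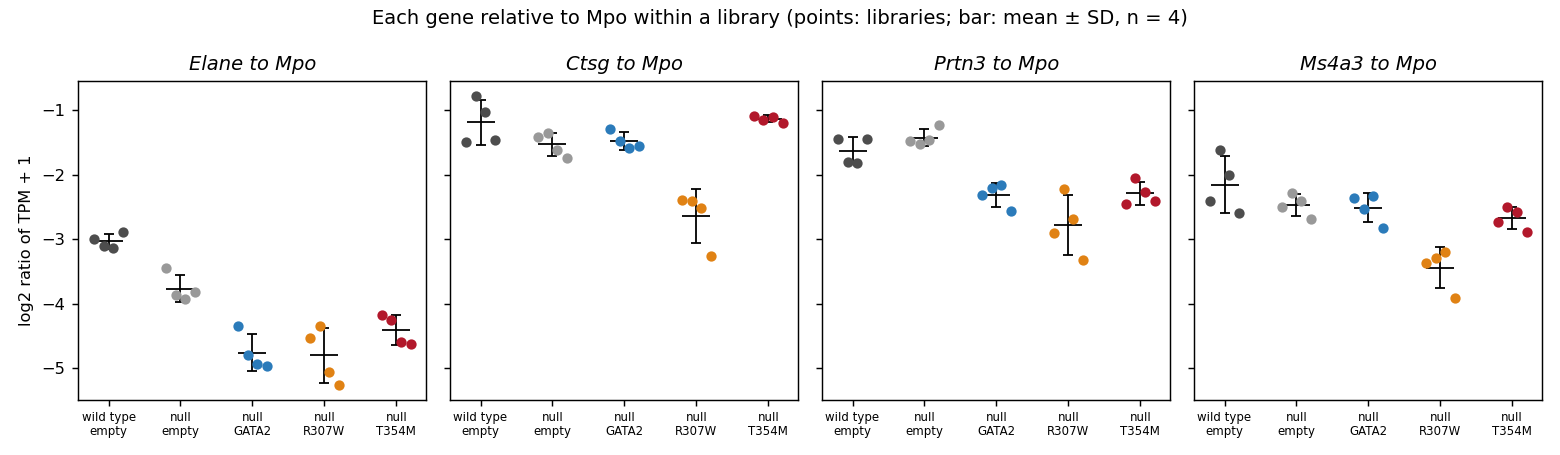
Log2 ratio of TPM + 1 of each gene to Mpo (y axis) in each library, by group, with the mean ± SD of 4. The R307W libraries lie lowest for Ctsg and Ms4a3, where the group means are -2.64 and -3.44, and the wild-type libraries lie highest for Elane.

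Other primary granule genes did not all move with these 5. Of 15 listed, 14 were tested (Bpi, with at most 4 counts in a library, was not). With T354M 5 rose and 3 fell against empty vector, with a median log2 difference of 0.32 beside 0.02 over all genes. Those with the lowest adjusted p were Prss57, the gene of a related serine protease, from 16.6 ± 2.79 to 86.3 ± 23.1 CPM (2.38 ± 0.19, adjusted p = 5.65e-08), Cd63, a granule membrane tetraspanin (2.49 ± 0.26, adjusted p = 2.19e-06), and Serpinb1a, an inhibitor of neutrophil serine proteases (1.27 ± 0.14, adjusted p = 5.93e-06). Among those that fell were the protease Ctsd (-0.58, adjusted p = 0.0161) and Ctsc (-1.18, adjusted p = 0.0488), the dipeptidyl peptidase that activates the granule proteases, both named after their values were seen. With the Gata2 vector 4 rose and 3 fell, and with R307W 5 rose and 2 fell. Prss57 and Cd63 rose with both, Cd63 by 2.27 ± 0.26 (adjusted p = 1.06e-05) and 2.11 ± 0.26 (adjusted p = 1.85e-05). Between T354M and the Gata2 vector Cd63 was not called (0.22 ± 0.24, adjusted p = 0.719). Prss57 (1.53 ± 0.18, adjusted p = 2.26e-05) and Serpinb1a (0.91 ± 0.14, adjusted p = 0.000307) were higher with T354M there. In enhancer-null against wild-type cells 7 rose and 4 fell: Gusb (0.72 ± 0.09, adjusted p = 2.42e-06) and Fuca1 (0.61 ± 0.08, adjusted p = 4.85e-06), both lysosomal hydrolases, had the lowest adjusted p, while Prss57 fell (-0.91 ± 0.18, adjusted p = 0.000435).

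Among 14 regulators of this stage, Gfi1, a transcriptional repressor required for neutrophil differentiation, had the lowest adjusted p in enhancer-null against wild-type cells and with T354M against empty vector. It was at 30.6, 29.1, 25.7 and 27.1 CPM in wild type and 11.3, 13.5, 10.1 and 10.98 with empty vector in enhancer-null cells (-1.30 ± 0.11, adjusted p = 4.49e-08). It was at 16.6, 16.7, 14.7 and 15.1 with the Gata2 vector, 21.6, 25.3, 23.2 and 19.3 with R307W and 65.1, 50.9, 66.2 and 67.7 with T354M. The T354M libraries lay above all others, at 5.46 times the empty-vector mean (2.45 ± 0.11, adjusted p = 2.21e-10), and R307W was below T354M (-1.48 ± 0.11, adjusted p = 3.61e-07). Against empty vector Gfi1 was also higher with the Gata2 vector (0.46 ± 0.11, adjusted p = 0.00689) and with R307W (0.96 ± 0.11, adjusted p = 1.01e-05). Myb, needed for progenitor proliferation and Mpo and Elane transcription, rose with all 3 vectors, from 171 ± 11.1 CPM with empty vector to 351 ± 35.3 with the Gata2 vector, 454 ± 63.9 with R307W and 568 ± 91.2 with T354M (adjusted p = 9.24e-06, 2.32e-07 and 9.97e-09). Cebpe, which acts in late granulocyte and eosinophil maturation, was at 5.37 ± 1.55 CPM with empty vector, 19.0 ± 5.72 with the Gata2 vector, 23.5 ± 8.23 with R307W and 51.4 ± 22.4 with T354M. It rose with each (adjusted p = 0.000909, 0.000267 and 2.87e-06), and the R307W and T354M levels did not pass the test of their difference (-1.13 ± 0.32, adjusted p = 0.0571). Cebpa and Runx1, also on the list and named after their values were seen, were not highest with T354M. Cebpa rose by 0.67 ± 0.13 with the Gata2 vector, 0.95 ± 0.13 with R307W and 0.84 ± 0.13 with T354M. Runx1 rose with the Gata2 vector (1.03 ± 0.21) and R307W (1.11 ± 0.21) and was not called with T354M (0.40 ± 0.21, adjusted p = 0.196). Spi1, which encodes PU.1, was higher in enhancer-null than in wild-type cells (1.37 ± 0.19, adjusted p = 1.09e-05). Against empty vector Spi1 was lower with the Gata2 vector (-0.71 ± 0.19, adjusted p = 0.0126). It was not called with R307W (-0.49 ± 0.19, adjusted p = 0.073) or T354M (-0.24 ± 0.18, adjusted p = 0.424). Leaving out Gata2, which is on the list but was itself manipulated, 7 of 13 regulators rose and 3 fell in enhancer-null against wild-type cells, 6 and 4 with the Gata2 vector, 6 and 2 with R307W, and 5 and 2 with T354M.

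**Figure D4:**
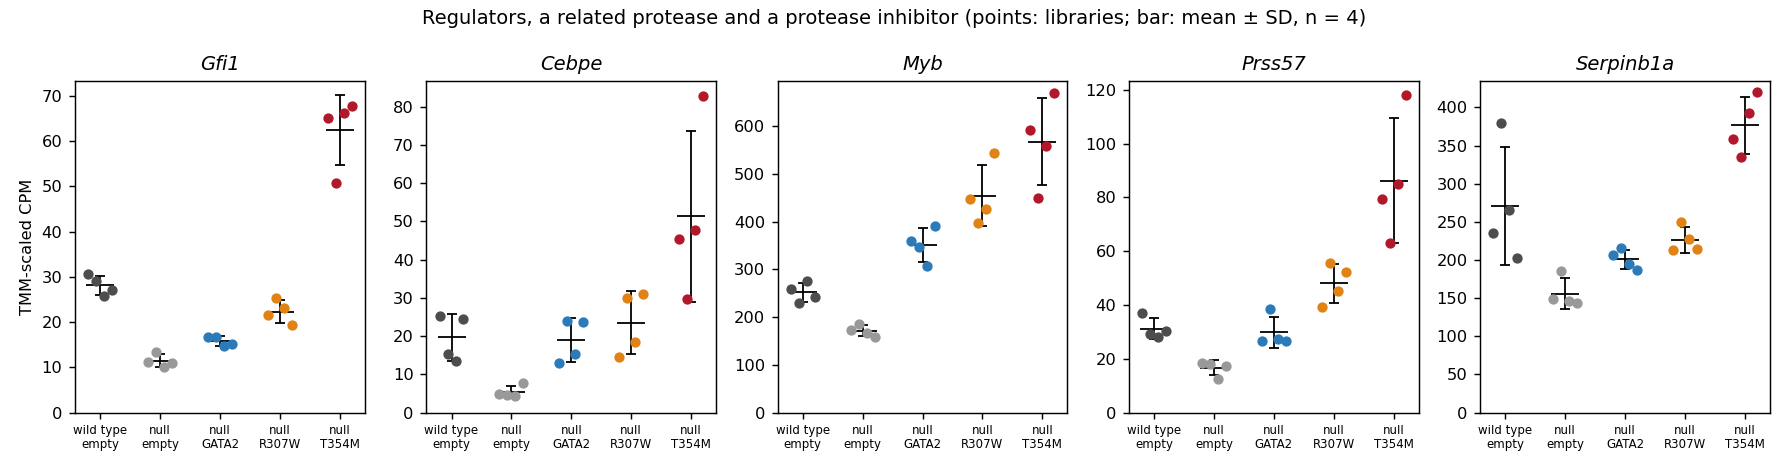
TMM-scaled CPM (y axis, linear, from 0) of Gfi1, Cebpe, Myb, Prss57 and Serpinb1a in the 20 libraries, by group, with the mean ± SD of 4. The T354M libraries of Gfi1 (50.9 to 67.7) lie above all others, and the enhancer-null libraries with empty vector are the lowest group for each of the 5 genes.

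Genes of neighbouring stages and of other cell types also differed between the groups. Of 20 other promyelocyte and granulocyte-monocyte progenitor genes, 12 rose and 0 fell with T354M against empty vector (median 0.72), among them Nkg7 (2.91 ± 0.23), Atp8b4 (1.503 ± 0.12) and Clec12a (1.27 ± 0.17). The counts were 6 and 3 with R307W, 6 and 7 with the Gata2 vector, and 4 and 6 in enhancer-null against wild-type cells. Of 20 genes of later neutrophil granules and mature neutrophils, 15 fell and 1 rose in enhancer-null against wild-type cells (median -2.15), where 0 of the 5 genes above were called. Camp, the cathelicidin of specific granules, fell from 271 ± 84.2 to 35.0 ± 9.73 CPM (-2.95 ± 0.36, adjusted p = 2.88e-06). Against empty vector 3 rose and 11 fell with the Gata2 vector, 1 and 8 with R307W, and 1 and 1 with T354M. Pglyrp1, a peptidoglycan-binding granule protein, rose with each (1.005 ± 0.26, 0.78 ± 0.26 and 2.06 ± 0.26, adjusted p = 0.0114, 0.0435 and 2.67e-05), and Mmp8, neutrophil collagenase, was the one that fell with T354M (-1.04 ± 0.30, adjusted p = 0.0213). The summed CPM of these 20 genes was 6894 to 17530 in wild type, 3011 to 4166 with empty vector, 1509 to 2304 with the Gata2 vector, 1451 to 2952 with R307W and 2472 to 4015 with T354M.

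Markers of eosinophils moved with the vectors: 9 of 10 rose with T354M and 10 of 10 with R307W and with the Gata2 vector, and 10 of 10 fell in enhancer-null against wild-type cells. Their summed CPM was 669 to 1063 in wild type, 19.3 to 27.2 with empty vector, 1872 to 3304 with the Gata2 vector, 1350 to 3400 with R307W and 1107 to 5905 with T354M. Of 15 mast cell and basophil markers, 6 rose and 1 fell with T354M, 7 and 1 with R307W and 12 and 0 with the Gata2 vector. Their sums were 820.5 to 1059, 129.6 to 141.4, 1403 to 4499, 606 to 1154 and 538 to 1613 CPM in the same order of groups, with 1 of the 15 at 0 in every empty-vector library, 2 with R307W and 1 with T354M. Of 12 monocyte markers, 7 fell with each of the 3 vectors and 11 rose in enhancer-null against wild-type cells, and their sums were 592 to 882, 2608 to 2784, 749 to 1831, 673 to 1739 and 547 to 1928 CPM. Of 10 dendritic cell markers, 10 fell with T354M and with the Gata2 vector and 8 with R307W, with sums of 67.5 to 79.0 CPM in wild type and 340 to 518 with empty vector. Erythroid markers summed to 5484 to 8561 CPM in wild type and 605 to 1687 in the other groups. Hepatocyte markers, from the organ of origin, were called in 0 of 10 cases by edgeR in enhancer-null against wild-type cells and with each vector against empty vector, with 0 at an unadjusted p below 0.05. Their median log2 difference was -0.80 in enhancer-null against wild-type cells, beside -0.05 over all genes. With the Gata2 vector, R307W and T354M it was -0.62, -0.96 and -0.60, beside 0.00, 0.02 and 0.02. The absence of calls therefore does not show equal levels. Against wild type, 4 of 10 were called with R307W, all lower, with 10 at an unadjusted p below 0.05, and 0 were called with the Gata2 vector or T354M, with 4 and 2 at an unadjusted p below 0.05. The hepatocyte sums were 902 to 3632 CPM in wild type, 786 to 2120 with empty vector and 363 to 1587 with the Gata2 vector. They were 173 to 1309 CPM with R307W and 365 to 1730 with T354M. Between T354M and the Gata2 vector, where 5 of 5 genes differed, edgeR called 10 of the 20 promyelocyte and progenitor genes higher and 1 lower (median 0.65). It also called 10 of 15 mast cell and basophil markers, 5 of 10 eosinophil, 8 of 14 erythroid and 6 of 20 late neutrophil genes. It called 0 of the monocyte, dendritic cell and hepatocyte markers there, with 1, 0 and 0 at an unadjusted p below 0.05. In that comparison the late neutrophil sums (2472 to 4015 against 1509 to 2304 CPM) and the erythroid sums (604.6 to 745.3 against 900.9 to 1687 CPM) did not overlap, while the eosinophil and monocyte sums did. Between R307W and T354M edgeR called 1 of the 20 promyelocyte and progenitor genes higher and 4 lower with R307W (median -0.41). It also called 4 of 10 eosinophil, 3 of 15 mast cell and basophil, 8 of 14 erythroid and 3 of 20 late neutrophil genes. The part of these cell types in the differences of the 5 genes was not tested.

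Genes beside Mpo, Ctsg and Ms4a3 that belong to other lineages had other patterns. Epx, the eosinophil peroxidase gene, lies 59.6 kb from Mpo and held 11 counts in all 4 empty-vector libraries together. It was at 69.5 ± 8.67 CPM in wild type, 287 ± 74.4 with the Gata2 vector, 11.9 ± 4.66 with R307W and 536 ± 454 with T354M. The R307W libraries of Epx (5.70 to 16.2 CPM) lay below the Gata2-vector ones (193 to 362), while for Mpo they lay above. Mcpt8, a basophil protease gene 14.6 kb from Ctsg, was at 81.0 ± 20.0 CPM in wild type, 10.95 ± 0.79 with empty vector, 644 ± 337 with the Gata2 vector, 35.3 ± 16.5 with R307W and 56.2 ± 26.1 with T354M. It rose by 5.88 ± 0.46 with the Gata2 vector (adjusted p = 2.12e-07), where Ctsg was not called. Ms4a2, the mast cell and basophil IgE receptor beta chain gene 5.78 kb from Ms4a3, was at 35.7 ± 9.59, 1.86 ± 0.17, 190 ± 65.7, 39.4 ± 25.3 and 21.4 ± 17.1 CPM in the same order. It fell in enhancer-null against wild-type cells (-4.26 ± 0.58, adjusted p = 8.83e-06), where Ms4a3 was not called. Of the tested genes within 100 kb, 3 of 7 around Mpo rose with T354M, 1 of 4 around Ctsg and 2 of 4 around Ms4a3, with 1 lower there. Of all genes, 9.26% were called higher with T354M. Around Mpo 4 of 7 rose and 0 fell with R307W (10% of all genes higher), and likewise with the Gata2 vector (19.2% called). Tspoap1, 7.65 kb from Mpo, rose with the Gata2 vector, R307W and T354M (0.61 ± 0.14, 0.77 ± 0.14 and 0.53 ± 0.14). Rnf43 rose with each as well (1.79 ± 0.35, 2.54 ± 0.35 and 1.02 ± 0.35). Of 12 tested genes within 100 kb of Elane, 2 rose and 2 fell with the Gata2 vector, 2 and 1 with R307W, 2 and 0 with T354M, and 4 rose and 2 fell in enhancer-null against wild-type cells. Those that fell with the Gata2 vector were Plppr3, given above, and Arid3a (-0.44 ± 0.11, adjusted p = 0.0121), and Plppr3 also fell with R307W. Prss57, 83.5 kb from Prtn3, rose with all 3 vectors, and Palm rose with each as well (0.89 ± 0.23, 1.28 ± 0.23 and 1.60 ± 0.24).

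**Figure D5:**
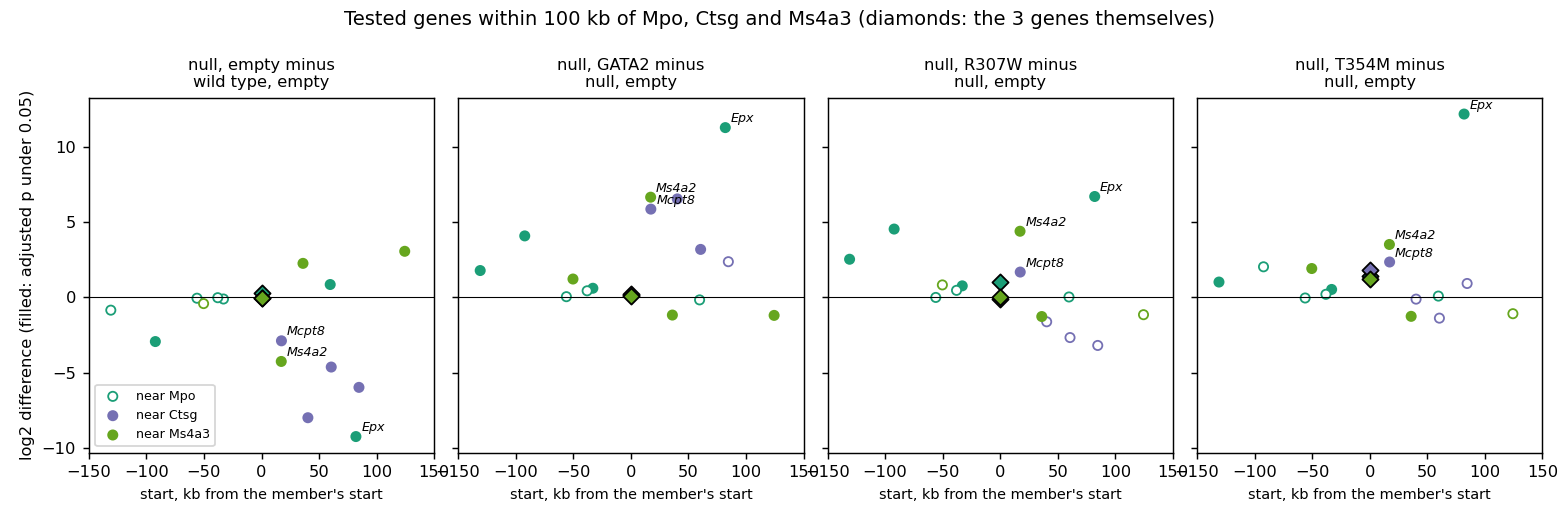
Log2 difference (y axis) of tested genes within 100 kb of Mpo, Ctsg and Ms4a3 against the distance between transcription starts in kb (x axis, positive downstream of the named gene), in 4 comparisons; filled points had an adjusted p below 0.05 and diamonds are the 3 genes themselves. Epx, Mcpt8 and Ms4a2 are far above 0 with the Gata2 vector (11.30, 5.88 and 6.67) where the diamonds lie near 0.

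The genes whose pattern was most like the mean of the 5 over the 20 libraries, among 9446 candidates, were Anxa3 (Pearson r = 0.935), C1rl (0.915), Lbp (0.909), Clec12a (0.908), Agps (0.907), Plscr3 (0.907), Slc39a11 (0.906) and Cldn15 (0.903). Anxa3, an annexin of neutrophil granules, was at 116 ± 29.1 CPM in wild type, 127 ± 8.43 with empty vector, 103 ± 22.3 with the Gata2 vector, 126 ± 16.8 with R307W and 228 ± 16.2 with T354M, so that, as for Ctsg and Ms4a3, T354M stood apart. Anxa3 and Clec12a were on the fixed list of promyelocyte genes. Of these 8, 2 were also among the 8 most like by Spearman's rank and 4 among the 8 most like over the 16 enhancer-null libraries. The libraries share group, so these coefficients share the group differences given above.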

How the data were processed

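RNA-seq was analysed from 20 gene tables, 1 per library. The labels name a NuGEN Ovation protocol for the RNA, and the tools STAR 2.5.2b and RSEM 1.3.0 and the build mm10 are taken from the submitters' processing notes. The deposited tables hold RSEM expected counts, TPM and FPKM per gene. Expected counts, as deposited by the authors, are estimated reads per gene and were rounded to whole numbers. TPM, which the authors scaled to length and library, served to compare genes, for ratios and in alternatives. Deposited FPKM was not used here.

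Symbols came from GENCODE M21 (53274 of 53379 identifiers). One edgeR 4.0.16 fit (filterByExpr, TMM, quasi-likelihood test) of all 20 libraries with 5 group means and 15 residual degrees of freedom tested 15835 genes. Depth was 22330475 to 33245876 counts a library, and replicates differed by more than sampling noise (chi-square per degree of freedom 16.47 to 102.1). The fit was tested on simulated data. The members and gene lists were chosen with earlier results of these data known. All 5 genes and the 8 most alike are named. The rule also allowed the 3 called genes of lowest adjusted p in each list and comparison and the tested genes within 100 kb; only some of these are named, picked after their values were seen, with exceptions stated, and marker lists are mostly given by counts and sums. Of the listed genes, 1 is not reported here by name. Alternatives were limma 3.58.1 on log2(TPM + 1) or log2(TPM + 0.1), DESeq2 1.42.0 (which also supplied other size factors), no filter, the 8 libraries of a comparison alone, leaving out libraries, and the replicate number as a block.

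Same-numbered libraries deviated together, with every correlation above 0.1, between the Gata2 vector and empty vector (0.124 to 0.300), R307W and the Gata2 vector (0.219 to 0.623), T354M and the Gata2 vector (0.159 to 0.551), and R307W and T354M (0.204 to 0.667). The labels do not say what a number marks. RefSeq promoter windows (GRCm38.p6) matched all 5 genes.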

Additional observations from a re-analysis of the deposited data

Results flagged for a closer look

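In 25 sets of 4 libraries (5 genes in 5 groups), 1 held a library far from the others. Ms4a3 in enhancer-null cells with empty vector was at 146.7 CPM in replicate 2, against 113.1 to 115.9 in the other 3. Chance gives such a gap in about 1 of 20 sets.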

How the results depend on the processing

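The counts of called genes among the 5 for T354M against wild type (4) and the Gata2 vector (5), and for R307W against empty vector (1), were the same in every alternative run, and that for T354M against empty vector (4) was 5, with Prtn3, in the 8 libraries alone and 4 in all others. Of 1530 single-gene results under alternatives, 1443 kept their direction and side of the threshold, 27 became called, 24 lost their call and 36 changed sign, none of the last being called. For enhancer-null against wild type the count of 0 became 2 with limma on log2(TPM + 1) or log2(TPM + 0.1), 1 with limma without a filter and 1 with the replicate block (Elane, adjusted p = 0.0336), and 0 to 1 with single libraries left out, 1 without wild-type replicate 1 or R307W replicate 2. For the Gata2 vector against empty vector the count of 1 became 2, with Prtn3, without a filter, with DESeq2, with limma on log2(TPM + 1) or log2(TPM + 0.1), in the 8 libraries alone and with the replicate block in the 16 enhancer-null libraries, an alternative chosen after seeing the data, and was 1 to 2 with libraries left out. For the Gata2 vector against wild type the count of 2 became 1 without replicate 4 of every group or in the 8 libraries alone, and was 1 to 2 with libraries left out. For R307W against wild type the count of 1 became 2 with the replicate block (Elane, adjusted p = 0.0362) and was 1 to 2 with libraries left out. For R307W against the Gata2 vector the count of 2 became 1 with limma on log2(TPM + 1) without a filter, 0 without replicate 4 of every group and 0 in the 8 libraries alone, and was 1 to 2 with libraries left out. For R307W against T354M the count of 3 was 2 to 4 over all alternatives, libraries left out included. The cause of these changes was not tested. The count of ratio tests at the smallest p, 23 of 40, did not change with log2(TPM + 0.1) or CPM; without replicate 4 it was not run, since 3 against 3 cannot go below 0.1.

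Differences near 0 changed sign. Against wild type, Ctsg in enhancer-null cells was 0.00285 without a filter and 0.05 with each limma setting (0.0466, 0.0468 and 0.0466), and Ms4a3 was 0.0756, 0.0764 and 0.0756 with limma. Ms4a3 with R307W against wild type was 0.0291 without a filter and 0.129, 0.131 and 0.129 with limma, and Elane with R307W against empty vector was 0.00503 without a filter and 0.0989 without replicate 4 of every group. With single libraries left out, the ranges were -0.262 to 0.0119 for Ctsg in R307W against empty vector, -0.119 to 0.108 for Ctsg in enhancer-null with empty vector against wild type, -0.265 to 0.106 for Elane in R307W against empty vector, -0.0512 to 0.288 for Ms4a3 in the Gata2 vector against wild type, -0.221 to 0.00166 for Ms4a3 in R307W against the Gata2 vector, -0.075 to 0.143 for Ms4a3 in R307W against empty vector, -0.145 to 0.195 for Ms4a3 in R307W against wild type, -0.183 to 0.167 for Ms4a3 in enhancer-null with empty vector against wild type and -0.0937 to 0.406 for Prtn3 in R307W against wild type. The number of all genes called moved by more than 1.5 times in some alternatives: from 3042 to between 1331 and 5258 for the Gata2 vector against empty vector, from 2773 to between 1115 and 5341 for R307W, from 2751 to between 1069 and 4984 for T354M, from 274 to between 117 and 637 for R307W against the Gata2 vector, from 1583 to between 822 and 2893 for T354M against it and from 553 to between 215 and 1319 for R307W against T354M, the highest always with the added replicate block. The replicate block in all 20 libraries raised the number of all genes called in every comparison, for R307W against empty vector from 2773 to 4097. The rise passed 1.5 times only from 274 to 441 and from 553 to 888. This block changed no other call among the 5 than the ones given. All 5 genes held at least 595 counts in every library, so counting error was small beside the spread between libraries.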
